A study of Mus musculus with 24 samples.

Results

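Transcripts of 8 serotonin (5-HT) receptor genes were followed through the hippocampus of WT and MSK1 KD mice kept in standard or enriched housing. The members were set by symbol, by a choice made with earlier results of these data known: Htr1a, Htr1b, Htr5a, Htr2a, Htr2c, Htr3a, Htr4 and Htr7, which are 8 of the 49568 gene symbols counted in each library. All 8 passed the filter on low counts and were among the 18482 genes tested. The animals were male, experimentally naive mice on a C57-Bl/6J background, 12 weeks old by their labels, and RNA was taken from whole hippocampus, 1 library from each sample. MSK1 KD mice carry a kinase-dead form of mitogen- and stress-activated kinase 1 (Rps6ka5) in the endogenous gene of every cell, and they and the WT mice were kept as separate homozygous lines. Standard housing (SH) was an ordinary cage, and the enriched environment (EE) was a large cage with a running wheel and toys, entered before birth. The 4 groups held 6 WT SH, 5 WT EE, 6 KD SH and 5 KD EE libraries. The 2 further EE libraries, 33B and 34B, were left out because the study's methods removed them for poor quality control. Of the 10 EE libraries used, 5 carry a lettered code (31B, 32A, 33A, 35A and 36A) and 0 of the 12 SH libraries do. The labels do not say what sets this second series of names apart, and it goes partly with housing. Lettered and other libraries occur together only within EE, and fits without the lettered libraries are among the alternatives below. Housing was given by cage, and the study kept males of a cage together. The labels do not tie samples to litters or cages, and possible cage-mates were treated as independent. The p-values therefore measure the spread between these samples, not between cages or litters.

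Depth was between 8911999 and 56752074 counts on genes in the 22 libraries, so that 3 counts stood for 0.0529 to 0.337 per 1000000 raw counts on genes. CPM in the results are counts scaled to a common library size with TMM factors, per 1000000 counts on the genes tested. Each member had at least 61 counts in every library. Pan-neuronal markers summed to between 5750 and 7080 CPM. The transcript of the mutated kinase itself was at 19.3 to 29.5 CPM over all groups, and a substitution that leaves the mRNA in place cannot be checked by its level. Library 12 (WT SH) stood apart by thalamic markers, with a sum of 458 CPM against at most 180 CPM in the others, and library 14 (WT SH) by striatal markers, with 311 CPM against at most 209 CPM. Most of all, the libraries differed in choroid plexus markers. The 12 genes of that list, among them Ttr, Folr1 and Kcnj13, summed to 29.6 CPM in library 6 (KD SH) and to 5730 CPM in library 36A (KD EE), and none of them was at 0 in any library.

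Serotonin reaches the hippocampus through axons of the raphe nuclei, and its receptors fall into classes by the signal they start. Htr1a, Htr1b and Htr5a couple to inhibitory Gi/o proteins, Htr2a and Htr2c couple to Gq and phospholipase C, Htr4 and Htr7 couple to Gs and adenylyl cyclase, and Htr3a encodes a subunit of a ligand-gated cation channel found in interneurons. Htr2c is known from neurons, and also as one of the most abundant receptors of the choroid plexus epithelium, the secretory tissue in the ventricles that makes cerebrospinal fluid and lies against the hippocampal fimbria. In a homogenate of whole hippocampus, Htr2c mRNA of both sources is counted together.

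Promoter windows of RefSeq (GRCm38.p6), from 250 bases before to 50 after the annotated start, were found for 6 of the 8 members. They were searched on both strands for TGACG, the core of the cAMP response element, because the transcription factor CREB is a substrate of MSK1, and for TAATCC, the core bound by OTX factors, because OTX2 is a factor of the choroid plexus. TGACG was in 20.8% of the 32851 windows of the table and TAATCC in 7.06%. Among the members, only the window of Htr7 held TGACG, once, and none held TAATCC. The windows are shown for the pair of Gq-coupled receptors, whose levels moved with tissue composition as described further on, and for Htr7 with its match in capitals (on the opposite strand). They lie at chrX:146962263-146962562 on the plus strand for Htr2c, chr14:74640624-74640923 on the plus strand for Htr2a and chr19:36057311-36057610 on the minus strand for Htr7. The capitals mark letters only, not a bound site.
Htr2c: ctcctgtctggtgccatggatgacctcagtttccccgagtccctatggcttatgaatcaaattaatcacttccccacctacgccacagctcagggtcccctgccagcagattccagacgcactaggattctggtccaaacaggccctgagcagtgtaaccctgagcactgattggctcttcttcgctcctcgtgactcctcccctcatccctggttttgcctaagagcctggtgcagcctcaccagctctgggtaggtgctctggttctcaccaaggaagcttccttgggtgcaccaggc
Htr2a: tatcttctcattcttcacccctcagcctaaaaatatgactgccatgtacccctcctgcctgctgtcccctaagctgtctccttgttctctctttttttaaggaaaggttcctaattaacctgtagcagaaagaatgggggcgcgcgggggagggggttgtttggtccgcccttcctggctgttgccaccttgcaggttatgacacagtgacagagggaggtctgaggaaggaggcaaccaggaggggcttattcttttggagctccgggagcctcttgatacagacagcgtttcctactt
Htr7: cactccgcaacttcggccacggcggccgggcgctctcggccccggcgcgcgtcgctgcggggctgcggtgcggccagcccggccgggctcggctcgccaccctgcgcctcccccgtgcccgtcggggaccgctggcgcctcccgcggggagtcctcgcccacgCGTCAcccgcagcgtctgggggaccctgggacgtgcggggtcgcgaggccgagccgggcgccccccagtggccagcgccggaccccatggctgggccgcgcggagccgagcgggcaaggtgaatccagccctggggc
The windows differ in composition, with 5 CpG dinucleotides and 56.3% G or C for Htr2c, 6 CpG and 52% for Htr2a, and 46 CpG and 81% for Htr7. Over all windows of the table the median was 7 CpG and 52.7%.

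Htr1a, the main inhibitory 5-HT receptor of pyramidal cells, was the most abundant member per length. Its level over 22 libraries was 8.72 ± 0.936 CPM per kilobase of exon (SD, n = 22). Htr2c followed with 6.06 ± 2.08 and Htr3a with 5.01 ± 0.685 CPM per kilobase. Htr7 (3.31 ± 0.435), Htr5a (3.02 ± 0.272) and Htr4 (2.59 ± 0.428) formed the middle of the order on the same scale, and Htr1b (1.68 ± 0.239) and Htr2a (1.48 ± 0.245) its lower end. Neighbours in this order were not always separated. Htr1a exceeded Htr2c in 19 of 22 libraries, Htr2c exceeded Htr3a in only 12, Htr7 exceeded Htr5a in 15 and Htr1b exceeded Htr2a in 17. Htr3a was above Htr7 in all 22 and Htr4 above Htr1b in 21. The per-length level of Htr1b also depends on how reads shared with an antisense gene were counted, as given further on. Of the summed per-length level of the 8 genes, Htr1a took 20.4% to 34.9% and Htr2c 9.9% to 33.3%. Both extremes of both genes were in the same pair of WT EE libraries, 33A (lowest Htr1a, highest Htr2c) and 35A. Shares of the same sum are tied, so a high share of Htr2c lowers that of Htr1a. In CPM, Htr1a was lowest in library 17 (WT EE, 29.89 CPM) and was 31.47 CPM in 33A.

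Htr2c was by far the most variable member among libraries of the same group. Its coefficient of variation within groups was 33.5%, where counting error alone gives 2.7%. For the other 7 it lay between 7.94% (Htr5a) and 16.6% (Htr2a), against counting errors of 3.11% to 6.97%. The highest library exceeded the lowest 3.97-fold for Htr2c and between 1.43-fold and 1.94-fold for the others.

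**Figure D1:**
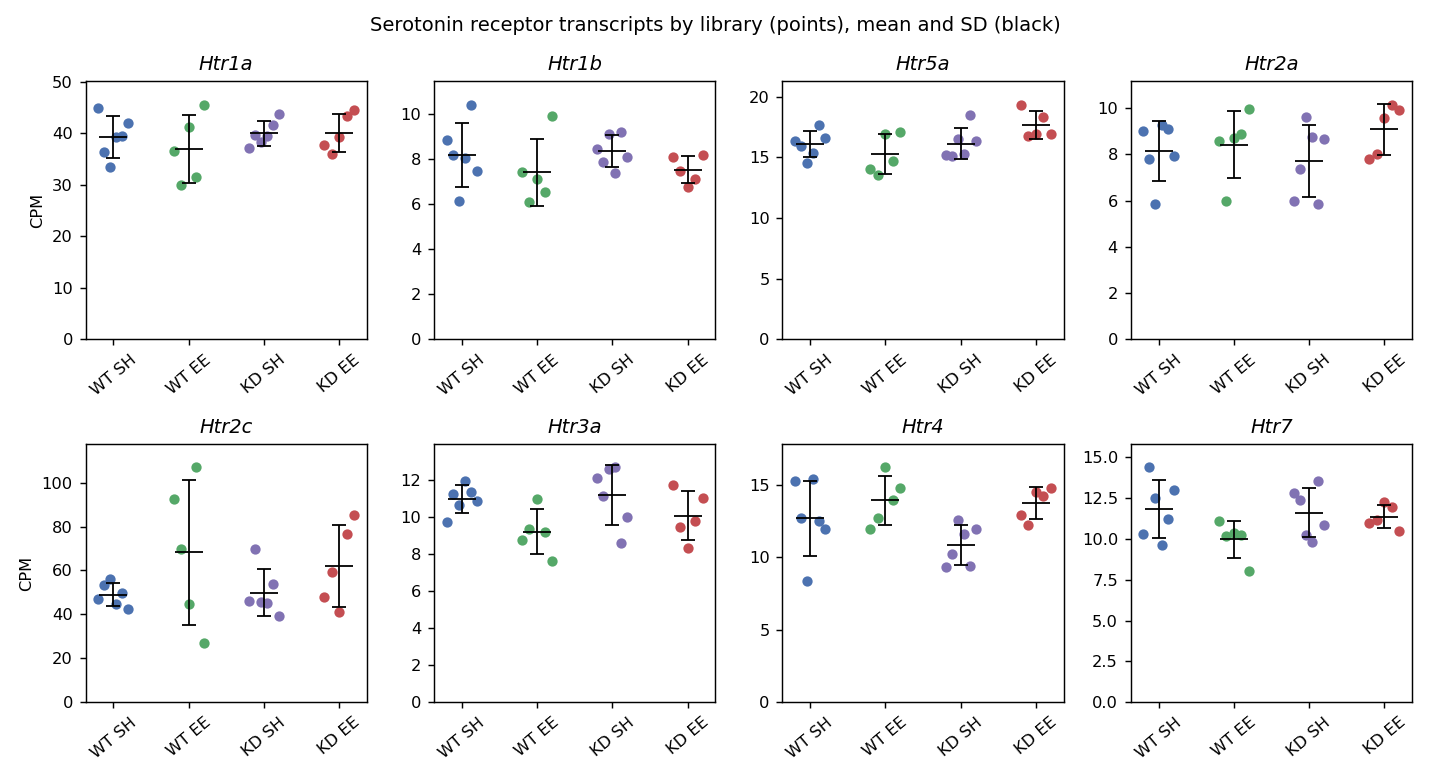
CPM (vertical axis, starting at 0) of each member in the 4 groups, with a point for each library and the mean and SD in black. The EE groups of Htr2c spread from 26.92 to 107 CPM, while each of the other members stays within a 1.94-fold range over all 22 libraries.

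The separation of Htr2c libraries followed choroid plexus RNA. In WT SH, Htr2c was between 42.57 and 56.02 CPM with a median of 48.51 CPM, and in KD SH between 39.12 and 69.58 CPM with a median of 45.87 CPM. In WT EE it was 107 CPM in library 33A, 92.44 in 16, 69.95 in 17, 44.65 in 31B and 26.92 in 35A. In KD EE it was 85.45 CPM in 36A, 76.68 in 32A, 59.08 in 8, 47.95 in 7 and 41.07 in 9. The highest libraries of both genotypes were EE libraries, yet 31B, 35A and 9 were no higher than SH libraries, and the groups overlapped. Ttr, the transthyretin gene and the most abundant choroid plexus marker, put the libraries in a like order. It was at 4666 CPM in 33A, 4732 in 16, 3682 in 17 and 5129 in 36A, and at 41.7 CPM in 31B, 34.2 in 35A and 166.5 in 9. Library 2, the KD SH library with the most Htr2c, also had the most Ttr of the SH libraries (2624 CPM).

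Among libraries of the same group, Htr2c rose with the choroid plexus score, the mean log2 CPM of the 12 markers, by 0.18 ± 0.02 (SE) log2 units per unit of score (edgeR quasi-likelihood test with a mean for each group, adjusted p = 5.692e-06). At the same rule, an adjusted p of 0.05 or less, 6.1% of all genes tested were called for this slope, and Htr2c was 1 of 8 members called. Bulk RNA does not tell more choroid plexus cells from more RNA in each of them. The slope was called whichever library was left out, and was between 0.15 and 0.20 in these fits. The other 7 members had slopes between -0.05 and 0.03 log2 units. Htr1a (-0.04 ± 0.01, edgeR adjusted p = 0.05915) and Htr5a (-0.04 ± 0.01, adjusted p = 0.06565) lay close to the threshold, and DESeq2 called both, with adjusted p of 0.03091 and 0.0242. Htr1a was also called in edgeR when library 1, 2, 7, 9, 32A or 36A was left out, and Htr5a without 1 or 9. None of the other 5 was called by either tool.

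**Figure D2:**
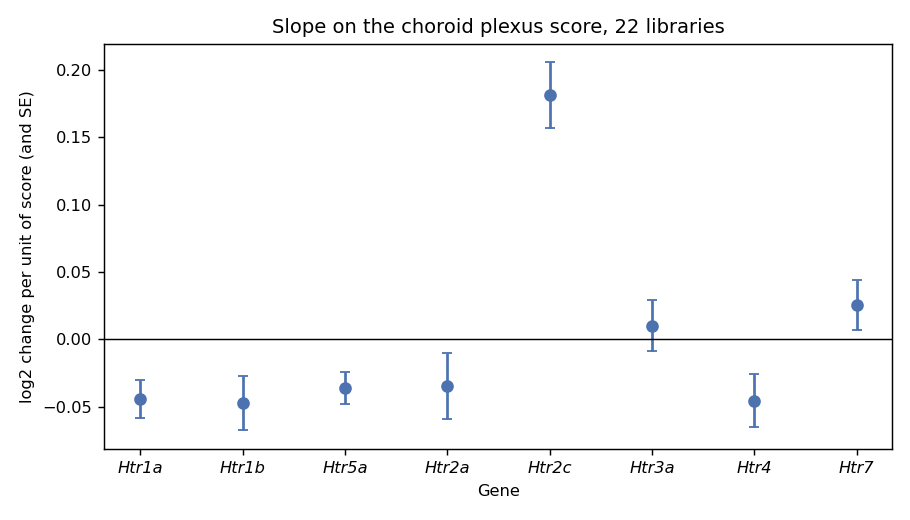
Change of each member in log2 units per unit of the choroid plexus score (vertical axis), as points with SE, from the fit of 22 libraries with a mean for each group. Htr2c stands at 0.18 and the other members lie between -0.05 and 0.03.

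Since RNA of separate tissues adds on the linear scale, the choroid plexus share of Htr2c was also described by a straight line of CPM on a linear choroid plexus index, the mean of the 12 markers each divided by its own mean. The index ran from 0.0608 (library 6) to 3.67 (33A). Htr2c was 41.96 ± 1.83 CPM (SE, n = 22) at an index of 0 and rose by 14.59 ± 1.16 CPM per unit of index, and the line took up 88.8% of the variance of Htr2c over the libraries. For none of the other 7 members did it take up more than 22% (Htr1b), and their fitted levels at the highest index were 0.814 to 1.03 times those at 0. For Htr2c that ratio was 2.27. The level at 0 was little moved by any single library, being 41.1 to 43.24 CPM as each was left out. It was 44.73 ± 1.41 CPM from the 12 SH libraries and 35.69 ± 4.09 CPM from the 10 EE libraries.

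**Figure D3:**
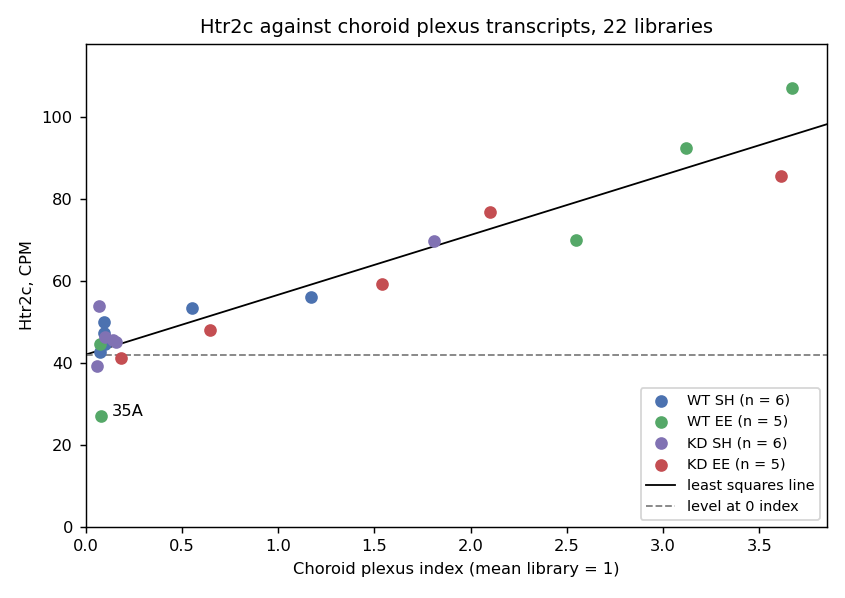
Htr2c in CPM (vertical axis) against the choroid plexus index (horizontal axis, 1 for the mean library), with a point for each library coloured by group, the least squares line and its level at 0 (dashed). Libraries of all 4 groups lie along 1 line from 41.96 CPM upward, with 35A (WT EE) the farthest below it.

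By this line, the choroid plexus share was 2.07% to 38.6% of the fitted Htr2c level in the 12 SH libraries, with a median of 3.28% in WT SH and 4.04% in KD SH. In WT EE its median was 47% and its highest value 56% (33A), and in KD EE the median was 34.9% and the highest value 55.6% (36A). What remained after the share was taken off, the remainder, was more alike between the groups, but this likeness is no test. The line was fitted over all 22 libraries without group means, so the remainder is uncorrelated with the index by construction. Group differences that go with the index are thereby taken off, whatever their source. The remainder was 43.86 ± 3.386 CPM (SD, n = 6) in WT SH, 40.49 ± 11.14 CPM (n = 5) in WT EE, 44.21 ± 4.796 CPM (n = 6) in KD SH and 38.46 ± 4.814 CPM (n = 5) in KD EE. Its range was 38.2 to 52.9 CPM in SH and 25.8 to 53.5 CPM in EE, so that the housings overlapped. The lowest remainder was that of 35A (25.77 CPM), and without it the range over the other 21 libraries was 32.71 to 53.49 CPM. The remainder holds the neuronal Htr2c together with any other Htr2c that does not follow the index.

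**Figure D4:**
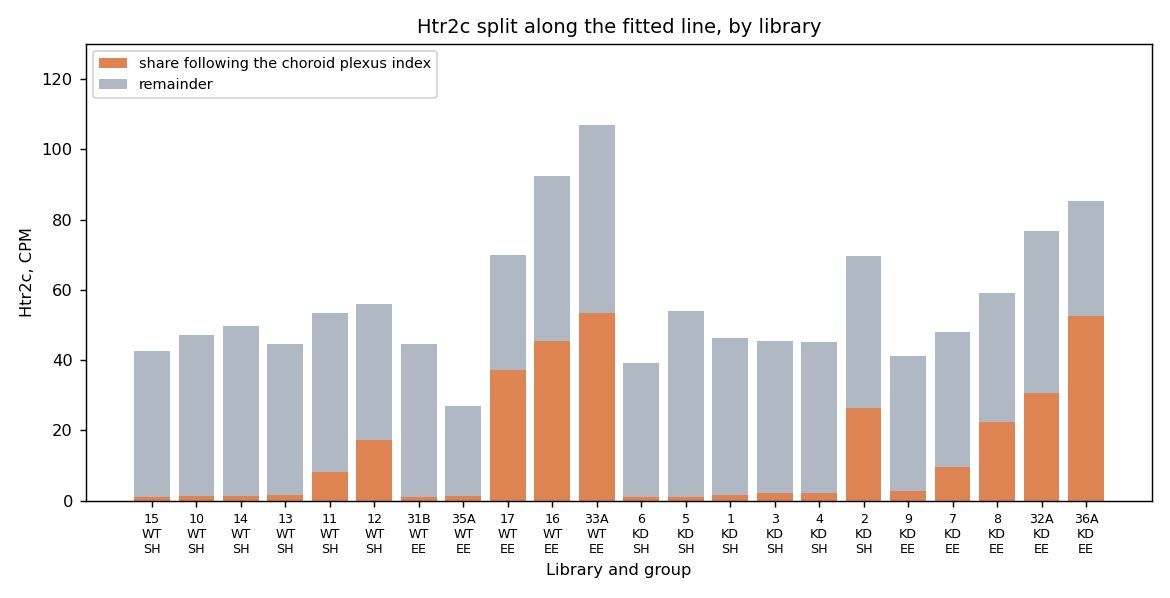
Htr2c in CPM (vertical axis, stacked bars) in each library, ordered by group and by choroid plexus index, with the share that follows the index in orange and the remainder in grey. The orange share reaches 53.5 CPM in 33A and 52.6 CPM in 36A and is under 3 CPM in 31B, 35A and 9, while the grey remainder is between 25.77 and 53.49 CPM throughout.

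The housing comparison asked which receptors differed between enriched and standard-housed mice. None of the 8 passed the test over both genotypes (edgeR, adjusted p of 0.05 or less and at least a 1.3-fold change), where 0.146% of all genes did. In WT alone and in MSK1 KD alone 0% of the genes tested were called, members included. At an unadjusted p under 0.05, 3 of 8 members were found over both genotypes (16.1% of all genes), 2 in WT (8.65%) and 1 in MSK1 KD (9.63%), and DESeq2 called no member in any of these comparisons. With the choroid plexus score in the edgeR fit, the same cut found 4 of 8 members over both genotypes (16.6% of all genes). In that fit it found 2 in WT (7.86%) and 3 in MSK1 KD (13.2%). No member separated the EE from the SH libraries without overlap in either genotype, which 1.19% of all genes did in WT and 0.546% in MSK1 KD.

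Htr2c had the largest difference, and the choroid plexus list moved with it. The sum of its 12 markers had a median of 60.2 CPM in WT SH, 4090 CPM in WT EE, 120 CPM in KD SH and 2230 CPM in KD EE, with ranges that overlapped between the housings, and all 12 were higher in EE over both genotypes with a median log2 difference of 2.34, though none was called (edgeR). Htr2c was 65.1 ± 25.5 CPM in EE (SD, n = 10) and 49.4 ± 8.05 CPM in SH (SD, n = 12), a log2 fold change of 0.40 ± 0.17 (SE, edgeR adjusted p = 0.2276). At equal choroid plexus score, a fit in which 0.0433% of all genes and no member were called, the difference was -0.12 ± 0.12 (edgeR adjusted p = 0.631). Within WT it went from 0.48 ± 0.24 to -0.02 ± 0.14, and within MSK1 KD from 0.33 ± 0.24 to -0.23 ± 0.15, none of them called. The value depended on single libraries, being 0.29 without 33A and 0.50 without 35A. The equal-score difference was 0.03 without 35A.

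The choice of libraries decided the call for Htr2c. The study's methods also removed samples that correlated poorly with others of their group, so its 17 libraries were selected on expression. Removed from SH were libraries 2 and 12, with an index of 1.81 and 1.17. From EE, libraries 9, 31B and 35A were removed, with an index of 0.184, 0.076 and 0.0785. The SD, index ranges and adjusted p of the 17 take no account of this selection. In the 17 libraries that the study kept, it was 76.9 ± 20.1 CPM in EE (SD, n = 7) and 46.7 ± 4.61 CPM in SH (SD, n = 10), and it was called over both genotypes (0.74 on the log2 scale, edgeR adjusted p = 1.544e-05), in WT (0.92, adjusted p = 0.0002027) and in MSK1 KD (0.56, adjusted p = 0.02725). In these 17 the choroid plexus index was 0.647 to 3.67 in EE and 0.0608 to 0.555 in SH, without overlap, so that housing and choroid plexus content cannot be told apart there. At equal score the difference over both genotypes in the 17 was 0.08 (edgeR adjusted p = 0.9996), and the slope of Htr2c on the score, 0.14, was not called either (adjusted p = 0.8041). With the lettered libraries alone left out, WT EE was reduced to libraries 16 and 17, whose index was 3.12 and 2.55, and Htr2c was called in WT (0.74, edgeR adjusted p = 0.01969) but not over both genotypes. In MSK1 KD, where libraries 7, 8 and 9 were left, its log2 fold change was 0.0046 (edgeR adjusted p = 0.9964), against 0.33 with all 5 KD EE libraries.

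**Figure D5:**
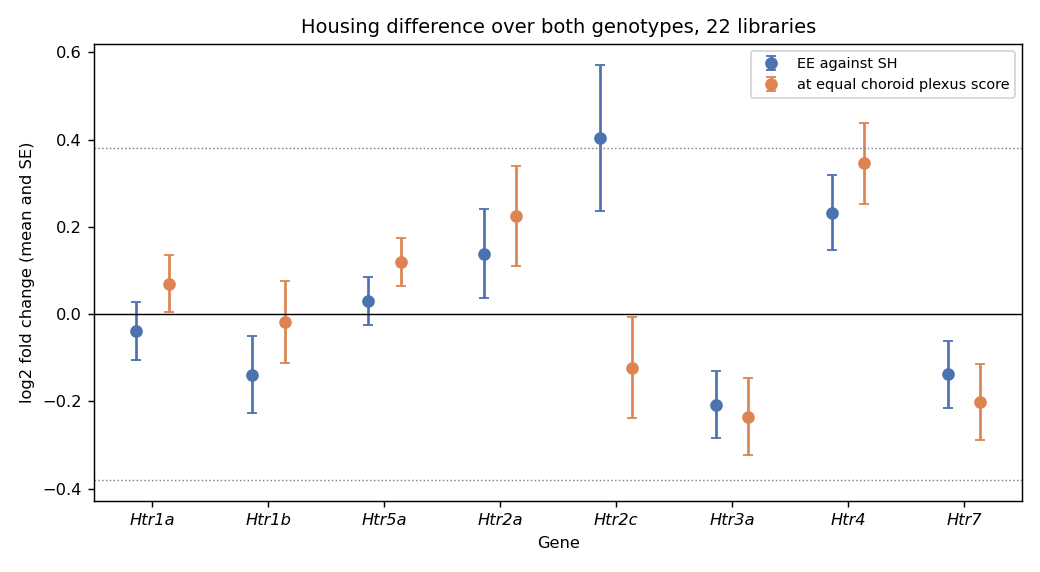
Log2 fold change of each member between EE and SH over both genotypes (vertical axis), as points with SE, before (blue) and at equal choroid plexus score (orange); dotted lines mark a 1.3-fold change. Htr2c moves from 0.40 to -0.12, and no other member passes a dotted line.

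Among the receptors that signal through Gi/o, levels in the housings lay close together when the genotypes were pooled. Htr1a, the inhibitory receptor of pyramidal cell bodies and dendrites, was 38.53 ± 5.295 CPM in EE (SD, n = 10) and 39.6 ± 3.177 CPM in SH (SD, n = 12). Its log2 fold change over both genotypes was -0.04 ± 0.07 (edgeR adjusted p = 0.8177). In the WT EE libraries it was 45.57 CPM in 35A, 41.27 in 31B, 36.54 in 16, 31.47 in 33A and 29.89 in 17. The 3 lower libraries are those with the most choroid plexus RNA in that group. Htr1b, the receptor of axon terminals, was 7.484 ± 1.078 CPM in EE and 8.272 ± 1.083 CPM in SH (edgeR, -0.14 ± 0.09, adjusted p = 0.456). Its exons share 852 bases with the antisense gene D430036J16Rik. The counts were made without strand, so reads from that stretch cannot be assigned to 1 of the 2 genes. How the counting treated them was not checked. If they were left out, the per-length level of Htr1b, which used all 4724 bases of its exons, is too low. Htr5a, whose receptor is found on neurons and is little studied, was 16.45 ± 1.828 CPM in EE and 16.09 ± 1.127 CPM in SH (edgeR, 0.03 ± 0.05, adjusted p = 0.8319). At equal choroid plexus score its log2 fold change was 0.12 ± 0.05 over both genotypes (edgeR unadjusted p = 0.0379, adjusted p = 0.2711). Within MSK1 KD it was 0.24 ± 0.08 (edgeR unadjusted p = 0.003435, adjusted p = 0.2526) and within WT -0.0021 ± 0.07. The interaction at equal score was -0.24 ± 0.09 (edgeR unadjusted p = 0.01512, adjusted p = 0.9999). None of these was called.

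Htr2a, the Gq-coupled receptor of cortical excitation, was low in every group. In WT EE it was 9.984 CPM in 35A, 8.89 in 33A, 8.698 in 31B, 8.563 in 16 and 6.009 in 17, and in KD EE 10.16 CPM in 32A, 9.915 in 36A, 9.573 in 9, 8.02 in 8 and 7.812 in 7. In WT SH it was between 5.84 and 9.281 CPM (median 8.475) and in KD SH between 5.86 and 9.631 CPM (median 8.035). The groups overlapped, and the log2 fold change over both genotypes was 0.14 ± 0.10 (edgeR adjusted p = 0.5277).

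Htr3a, the channel subunit of interneurons, was lower in EE by the median of either genotype. In WT EE it was 11.01 CPM in 31B, 9.374 in 17, 9.221 in 33A, 8.799 in 16 and 7.637 in 35A, against 9.763 to 11.98 CPM (median 11.08) in WT SH. In KD EE it was 11.76 CPM in 7, 11.02 in 36A, 9.828 in 32A, 9.475 in 8 and 8.348 in 9, against 8.627 to 12.71 CPM (median 11.64) in KD SH. Only 31B among the WT EE libraries lay within the range of WT SH, and in MSK1 KD the ranges overlapped widely. The log2 fold change over both genotypes was -0.21 ± 0.08 (unadjusted p = 0.012, edgeR adjusted p = 0.1696) and at equal choroid plexus score -0.23 ± 0.09 (edgeR adjusted p = 0.1946), so the difference did not pass the correction.

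Htr4, a Gs-coupled receptor of pyramidal and granule cells, was higher in EE by the same description. In KD EE it was 14.81 CPM in 36A, 14.47 in 9, 14.23 in 32A, 12.92 in 7 and 12.22 in 8, against 9.329 to 12.55 CPM (median 10.89) in KD SH, so that 1 EE library lay within the SH range. In WT EE it was 16.21 CPM in 31B, 14.79 in 35A, 13.98 in 33A, 12.74 in 17 and 11.93 in 16, against 8.342 to 15.42 CPM (median 12.61) in WT SH, with wide overlap. The lowest WT SH value was that of library 12, the library with thalamic markers. Over both genotypes the log2 fold change was 0.23 ± 0.09 (unadjusted p = 0.01287, edgeR adjusted p = 0.176) and at equal choroid plexus score 0.35 ± 0.09 (edgeR adjusted p = 0.09464). In DESeq2 the equal-score value was 0.35 with an adjusted p of 0.02376, under the 1.3-fold change that a call also needed. Within MSK1 KD it was 0.47 ± 0.13 (unadjusted p = 0.001007, edgeR adjusted p = 0.2481) and within WT 0.22 ± 0.12 (edgeR adjusted p = 0.6685), and the interaction at equal score was not called (edgeR adjusted p = 0.9999). In the 17 libraries the equal-score value was -0.03.

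Htr7, the other Gs-coupled member, was 10.68 ± 1.158 CPM in EE (SD, n = 10) and 11.73 ± 1.588 CPM in SH (SD, n = 12), with a log2 fold change of -0.14 ± 0.08 (edgeR adjusted p = 0.3878). At equal choroid plexus score the fold change of Htr7 was -0.20 ± 0.09 (edgeR unadjusted p = 0.02851, adjusted p = 0.247). Its lowest library was again 35A, at 8.052 CPM, where Htr2c and Htr3a were also at their lowest and Htr1a at its highest. That library also had the highest summed level of cortex and subiculum markers (460 CPM, against 328 CPM in the lowest library) and of dentate gyrus markers (448 CPM). Of all its counts, 18.6% were in rows that name no gene, against 14.05% to 16.08% in the other 21 libraries. The part of these in its receptor levels was not tested.

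The genotype comparison asked whether the kinase-dead mutation changed receptor transcripts. WT and MSK1 KD did not differ in any member past the test, over both housings, within SH or within EE, and 0% of all genes were called in each of these comparisons (edgeR). At an unadjusted p under 0.05 no member was found over both housings (6.06% of all genes) or within SH (5.76%), and 1 within EE (2.61%). That member was Htr5a, at 15.26 ± 1.639 CPM in WT EE (SD, n = 5) and 17.64 ± 1.149 CPM in KD EE (SD, n = 5), a log2 difference of -0.21 ± 0.08 (edgeR adjusted p = 1). The largest value over both housings was that of Htr4, 0.12 ± 0.09 (edgeR adjusted p = 0.8405). The interaction of genotype and housing, which tests whether the housing difference depended on the kinase, was called for no member and for 0% of all genes, with 0 members and 2.04% of all genes at an unadjusted p under 0.05. DESeq2 called no member in any of them.

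Other tissue scores were tried in the same way as that of the choroid plexus, 1 at a time. Htr2a rose with the dentate gyrus score, the mean log2 CPM of Prox1, Dsp, C1ql2, Tdo2, Lct and Pdzd2, by 1.04 ± 0.23 log2 units per unit of score (edgeR adjusted p = 0.016), where 2.08% of all genes were called. It was the only member called for this score. The call held whichever library was left out, with a slope of 0.94 to 1.44. The score was lowest in library 5 (KD SH, -0.57) and next lowest in 12 (WT SH, -0.28), which were also the libraries with the least Htr2a (5.86 and 5.84 CPM). Htr4 had a slope of 0.77 on the dentate gyrus score (edgeR adjusted p = 0.05244) and was called only without library 5, 10 or 14. Without library 5, Htr1a was called too, at a slope of 0.79 against 0.30 with it.

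No member was called for the thalamus (0.303% of all genes called), striatum (0.0216%), CA1 (0%), interneurons of the caudal ganglionic eminence (0.00541%) or cortex and subiculum (0.936%) scores. At an unadjusted p under 0.05 edgeR found 2, 0, 2, 1 and 4 of the 8 members for these 5 scores, in this order, against 4.69%, 4.05%, 12.3%, 9.46% and 19% of all genes, and DESeq2 was not run on them. The value nearest the threshold was the slope of Htr1b on the cortex and subiculum score, 1.29 ± 0.34 (edgeR adjusted p = 0.06023), which was called without library 9, as was that of Htr5a (0.76, adjusted p = 0.07806) without 31B. Htr3a, which interneurons of the caudal ganglionic eminence express, had a slope of 0.52 ± 0.65 on the score of those cells (edgeR adjusted p = 0.8538). That score varied little, between -0.0986 and 0.2081.

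Between the 7 members other than Htr2c, 21 pairs were correlated over the 22 libraries on the log2 CPM scale. Of these, 7 had an adjusted p of 0.05 or less by Pearson's r (permutation test), 5 of them positive. The share of other gene pairs that would reach this was not computed, so whether the count is particular to these receptors was not tested. Libraries were permuted across the 4 groups, so differences between groups enter these p-values. Htr2a and Htr4 were the most alike pair, with r = 0.788 (permutation p = 4e-05, adjusted p = 0.00084) and Spearman's rho = 0.691 (permutation p = 0.00045, adjusted p = 0.00945). Without the 2 libraries farthest from the median of Htr2a r was 0.657, and it was 0.878 within SH and 0.556 within EE. Htr4 and Htr7, both coupled to Gs, went opposite ways, with r = -0.569 (permutation p = 0.00572, adjusted p = 0.03) and rho = -0.552 (permutation p = 0.00863, adjusted p = 0.0693). Within SH that r was -0.585, within EE -0.251, and without the 2 farthest libraries -0.516. Htr1a and Htr5a had r = 0.613 (permutation p = 0.00212, adjusted p = 0.0223) and rho = 0.527 (permutation p = 0.0132, adjusted p = 0.0693), with 0.425 when the 2 farthest libraries were left out. By Spearman's rho the adjusted p of 0.05 was met by Htr2a and Htr4 alone. All members of a library share its depth and tissue composition.

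Each member was also set beside the 15020 tested genes with a mean of at least 1 CPM, and the genes most like it over 22 libraries are given as a description. For Htr2c they were Elovl7 (r = 0.972), a fatty acid elongase, Wdr63 (0.944), a component of ciliary dynein arms, and Cab39l (0.934). No other member had a partner this close. Sorl1, a sorting receptor of neurons, was among the leading 3 for both Htr4 (0.846) and Htr2a (0.828). Of the remaining members, the highest r was 0.847 for Htr3a (with Fkbp1a), 0.824 for Htr5a (Thrb, a thyroid hormone receptor), 0.803 for Htr1a (Zmym1), 0.798 for Htr1b (Naa15) and 0.728 for Htr7 (Rsrp1).

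The remaining receptor genes were lower than most members. Of the 6 others, Htr1d, Htr1f, Htr2b, Htr5b and Htr6 were tested and Htr3b, with at most 3 counts in a library, was not. Htr6 (6.019 ± 1.182 CPM, SD, n = 22) and Htr5b (5.366 ± 1.07 CPM) were the most abundant, and Htr2b and Htr1d had means of 0.2213 and 0.2826 CPM. None of the 5 was called in a housing or genotype comparison or for the choroid plexus score (edgeR), and their median log2 difference between EE and SH over both genotypes was 0.0213, against 0.0047 for all genes.

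Of 8 tested genes of serotonin synthesis, transport and breakdown, none of them a marker in the choroid plexus score, 2 rose with that score. Slc29a4, the plasma membrane monoamine transporter that takes up serotonin with low affinity, rose by 0.15 ± 0.02 log2 units per unit of score (edgeR adjusted p = 5.419e-06), and Maob, a monoamine oxidase, by 0.06 ± 0.01 (edgeR adjusted p = 0.003965). Both were called whichever library was left out. On the linear index, Slc29a4 was 32.89 ± 1.42 CPM at 0 and 69.47 CPM at the highest index, a ratio of 2.11 beside that of 2.27 for Htr2c. Its difference between EE and SH was 0.49 ± 0.14 (edgeR adjusted p = 0.0922) and 0.09 ± 0.09 at equal score (adjusted p = 0.6615). The serotonin transporter gene Slc6a4, which raphe neurons express, had at most 11 counts and was not tested, and Tph2, the synthesizing enzyme of the same neurons, had a mean of 1.178 CPM. Tph2 was between 0.6257 and 1.064 CPM in WT SH and reached no lower than 1.171 CPM in KD SH, without overlap, as for 0.276% of all genes, but it was not called (-0.61 ± 0.21 on the log2 scale, edgeR adjusted p = 0.8115).

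Of 18 G protein and effector genes and 10 tested genes of receptor partners and RNA editing, none was called in any housing or genotype comparison (edgeR), and 1 was called for the choroid plexus score. That gene was Mpdz, which encodes a scaffold that binds the tail of the Htr2c receptor, with a slope of -0.04 ± 0.01 (edgeR adjusted p = 0.04755). It stayed called in only 8 of the 22 fits that left out 1 library, with adjusted p between 0.01214 and 0.1539 (edgeR). S100a10 (p11), which brings Htr1b and Htr4 to the cell surface, was 8.713 to 9.641 CPM in WT EE. This range lay below that of WT SH (9.797 to 11.58 CPM), as for 1.19% of all genes, and below that of KD EE (10.35 to 13.65 CPM), as for 0.325%. Neither difference was called, at -0.24 ± 0.09 (edgeR adjusted p = 0.4343) and -0.33 ± 0.10 (adjusted p = 1) on the log2 scale.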

How the data were processed

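Per the labels and the study's methods, the authors trimmed paired reads of polyadenylated RNA, aligned them with STAR 2.5 to GRCm38 and counted unique alignments by gene symbol with HTSeq regardless of strand. The deposited file of each of the 24 libraries holds these whole-number counts, without normalization. Rows that name no gene, which held 14.05% to 18.6% of the counts in the 22 libraries used, were kept out of library sizes and tests. A separate table of values divided by size factors for 17 libraries was not used.

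The 22 libraries that passed quality control were analysed in R 4.3.3 with edgeR 4.0.16 (filterByExpr by group, TMM factors, quasi-likelihood test, Benjamini-Hochberg adjustment over 18482 genes). The call for a group difference needed an adjusted p no higher than 0.05 with a log2 fold change of at least 0.38 either way, and slopes on tissue scores by the adjusted p. A score is the mean log2 CPM of a marker list with a prior count of 2, fitted beside a mean for each group. DESeq2 1.42.0 was an alternative, and further alternatives were the 17 libraries of the study, all 24, other filters and scalings, no lettered libraries, and each library left out in turn. Leaving out libraries 12, 14 and 35A together was added after the data were seen. The linear choroid plexus index and correlations (100000 permutations, two-sided) were computed in Python 3.11.15 with scipy 1.17.1. Simulated data were used to test the edgeR housing comparison over both genotypes, the edgeR slope on the choroid plexus score and the straight line. The other fits were not tested in this way. Per-length levels used the union of exons in GENCODE M21, which held 47240 of the 49568 symbols. No 2 libraries held identical counts. Without molecular identifiers, the floors stand for counting error alone.

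The members and lists were chosen with earlier results of these data known. The genes named were the 8 members, the 3 genes most like each of them, and, of the other lists, genes called or with groups that did not overlap. A gene under this rule is not reported here. Levels of Htr6, Htr5b, Htr2b and Htr1d and the example markers were named in addition, for their abundance or as landmarks.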

Additional observations from a re-analysis of the deposited data

How the results depend on the processing

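In all comparisons of the 4 groups by genotype, the number of members called stayed at 0 under every alternative run. For housing, 1 member (Htr2c) was called in WT, in MSK1 KD and over both genotypes with the 17 libraries of the study, and 1 in WT with no lettered libraries, against 0 otherwise. For the slope on the choroid plexus score, where 1 member was called with the 22 libraries, 0 were called with the 17 libraries, 3 with DESeq2, 2 with Ttr alone as the score, and 1 to 3 as each library was left out. For the other 6 scores the number was 1 to 3 as each library was left out. The level of Htr2c at 0 index, 41.96 ± 1.83 CPM (SE), was 35.69 ± 4.09 CPM from the EE libraries alone, 42.16 to 44.73 CPM under the other alternatives and 41.1 to 43.24 CPM as each library was left out. Over all genes, the count called between EE and SH over both genotypes was 27, but 720 in the 17 libraries, 211 by DESeq2, 209 with no filter, 196 without libraries 12, 14 and 35A, 90 with all 24, 80 with no lettered libraries, 49 by the adjusted p alone, 45 with at least 10 counts in every library and 44 with DESeq2 size factors, and 2 (without library 1) to 287 (without 31B) as each was left out. At equal choroid plexus score it was 8, and 0 with the 17 libraries, 92 by DESeq2, 90 with no filter, 20 with Ttr alone, 16 by the adjusted p alone, 5 with at least 10 counts, 1 with no lettered libraries, 0 without libraries 12, 14 and 35A, and 0 to 41 as each was left out. In WT it was 0, but 664 with the 17 libraries, 314 with no lettered libraries, 20 by DESeq2, 7 with no filter and 1 with all 24. In MSK1 KD it was 0, but 325 with the 17 libraries, 3 by DESeq2 and 1 without library 9. Between the genotypes it was 0, but within EE 1 with the 17 libraries and 1 without library 9, and within SH 2 by DESeq2. The slope on the choroid plexus score was called for 1128 genes, and for 61 with the 17 libraries, 271 with no lettered libraries and 623 without libraries 12, 14 and 35A.

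Signs turned only for values that were not called. The turns listed below leave out the genotype comparisons within SH or EE and the interaction, where signs of some members also turned as each library was left out. For Htr2c the log2 difference between genotypes was -0.0903 to 0.0914 within SH and -0.1077 to 0.3207 within EE. Its interaction was -0.0795 to 0.3489. With the 17 libraries, the log2 change in WT was -0.14 for Htr2a and -0.07 for Htr4, over both genotypes -0.04 for Htr5a, at equal score -0.03 for Htr1a, -0.28 for Htr2a, 0.08 for Htr2c and -0.03 for Htr4, and the slope on the choroid plexus score was 0.07 for Htr2a and 0.03 for Htr4. With no lettered libraries, it was -0.16 for Htr2a and -0.04 for Htr4 in WT, -0.09 for Htr1a in MSK1 KD, -0.04 for Htr5a and -0.02 for Htr2a over both genotypes, and -0.04 for Htr1a and 0.05 for Htr2c at equal score. Without libraries 12, 14 and 35A, it was -0.08 for Htr2a and -0.01 for Htr4 in WT and -0.02 for Htr1a at equal score, and the slope of Htr3a was -0.0004. With no filter, Htr1a was at -0.0035 in MSK1 KD, and without group means the slope of Htr3a was -0.01. As each library was left out, the change in WT was -0.03 to 0.1419 for Htr2a, that in MSK1 KD -0.03 to 0.0479 for Htr1a and -0.0691 to 0.02 for Htr7, and that between genotypes -0.0897 to 0.01 for Htr1b, -0.0516 to 0.03 for Htr2a and -0.07 to 0.1463 for Htr2c. At equal score it was -0.1233 to 0.04 for Htr1b and -0.1956 to 0.03 for Htr2c, and the slope of Htr3a was -0.0029 to 0.03. The cause of these shifts was not tested, beyond the change in which libraries or genes enter. No paired analysis was possible because the groups share no replicate numbers.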

Other observations

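Some of the 18 G protein and effector genes, and of the genes of receptor partners and RNA editing, also varied with tissue scores. Of all genes, 2.08% were called for the dentate gyrus score and 0.303% for the thalamus score. Plcb4, a phospholipase C, fell by 1.38 ± 0.28 log2 units per unit of the dentate gyrus score (edgeR adjusted p = 0.00972). It was called in all 22 fits that left out 1 library. Rgs4, a regulator of G protein signaling, fell by 0.73 ± 0.15 with the same score (edgeR adjusted p = 0.009173) and was called in 21 of 22, the exception being without library 5 (adjusted p = 0.153). Gna11, a Gq-class alpha subunit, rose by 0.41 ± 0.10 (edgeR adjusted p = 0.03226) but was called in 13 of 22. On the thalamus score, Plcb4 rose by 0.57 ± 0.10 (edgeR adjusted p = 0.004633) and Adarb1, an RNA-editing deaminase whose targets include Htr2c, by 0.29 ± 0.05 (adjusted p = 0.007236), and neither was called without library 12, where the adjusted p were 0.4435 and 0.994. None of these 4 genes was called in a comparison of the groups.

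Library 33B (WT EE), which failed quality control, held Htr2c at 62.5 CPM, Htr1a at 32.9 CPM and Htr4 at 19.6 CPM, the last above all 22 other libraries. The values of 33B came from a scaling of all 24 libraries, and those of the 22 from a scaling without 33B and 34B. In library 34B (KD EE) only Htr5a had counts, 2 in all, and with 16442 counts on genes in the whole library the other 7 members were not detectable at this depth.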
